A study of Mus musculus with 6 samples.

Results

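Genes that serve DNA replication and mitosis were followed in mouse lung fibroblasts that had been transferred into injured lungs. The set holds 39 genes chosen by symbol: 14 of S phase, 21 of G2/M and 4 of chromatin or tubulin that are also used outside 1 phase (Hmgb2, Stmn1, Tubb5 and H2afz). Of the 39, 38 matched a row among the 19865 gene symbols of the deposited counts. H2afz, searched also under its newer symbol, matched no row and was not analysed here.

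The donor cells were primary lung fibroblasts of C57BL/6 background from Col1a2-GFP transgenic mice, in which a collagen promoter drives a green reporter. A retrovirus gave them either trSrebf1, the active form of Srebf1c, a factor that switches on lipid-synthesis genes (3 libraries), or a control vector (3 libraries), and the surface marker hLNGFR was shared by both groups. Recipient C57BL/6 mice of both groups had bleomycin (2 mg/kg), which damages lung tissue, instilled into the airways, and they received the cells through the trachea on day 5. The labels of both groups name doxycycline, which induces trSrebf1, on day 7, and live cells were sorted on day 10 for the reporter and hLNGFR and against Ter119, CD146, EpCAM, CD45 and CD31. Each library was made by 3'SAGE-seq, which counts short tags near the 3' ends of polyadenylated transcripts, from 10000 sorted cells. The reporter sort keeps cells whose collagen promoter is active, the form of Srebf1 is driven by a vector, and the labels give neither the animals' age nor whether libraries came from separate mice.

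Library totals were 4688196, 4151691 and 4504005 counts in trSrebf1 libraries and 3888560, 3675146 and 4134354 counts in control libraries. As a check of the labels, Srebf1 had 133, 123 and 108 counts in trSrebf1 libraries, against 32, 20 and 33 counts in control libraries, higher by 1.98 on the log2 scale (SE 0.23; edgeR's quasi-likelihood test, adjusted p = 2.88e-06). Its 3' end lies opposite Rai1, and tags of the vector's and the cell's own Srebf1 were not told apart. Of the genes of the proteins used to remove other cells, Pecam1 (CD31) and Epcam had at most 1 count in any library and Mcam (CD146) at most 6, and CD45 and Ter119 were not analysed here. Col1a1 averaged 8123 ± 893 CPM (counts scaled to a common library total) in trSrebf1 libraries and 7453 ± 707 CPM in control libraries (SD, n = 3 each). Of all 8 fibroblast markers, 6 were called lower, among them Col1a2 and Dcn, and Pdgfrb higher, beside 13.0% and 17.2% of all tested genes. The sum of the 8 was 20360, 23290 and 22800 CPM in trSrebf1 libraries, against 33770, 28780 and 29220 CPM in control libraries, with no overlap. Control library 1 stands apart in several results below, and only some of these are given with and without it.

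During S phase the Mcm2 to Mcm7 proteins form the helicase that opens DNA, Cdc6 loads it at origins, and enzymes such as thymidylate synthase and ribonucleotide reductase supply the building blocks. In G2 and mitosis, Cdk1 with B-type cyclins starts chromosome condensation, kinesins and microtubule binders build the spindle, and a checkpoint holds the cell until every chromosome is attached. Transcripts of the first group typically peak earlier in the cycle than those of the second, and both are low in resting fibroblasts.

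G2/M genes were lower in trSrebf1 fibroblasts, while the S-phase genes were mixed. The summed level of the 21 G2/M genes was 39.8, 44.9 and 33.8 CPM in trSrebf1 libraries, against 109.6, 87.2 and 93.7 CPM in control libraries, a fold of 0.408 (log2 ratio -1.29). The groups lie far apart, with the highest trSrebf1 library below the lowest control library. The 14 S-phase genes summed to 89.7, 82.0 and 91.1 CPM in trSrebf1 libraries, against 124, 84.9 and 91.1 CPM in control libraries, and there the groups overlap. These sums hold every member with a row and carry no test. In these libraries of sorted bulk cells, fewer cycling cells and less RNA per cycling cell cannot be told apart.

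Tests were run on the 10194 genes with enough counts, 17 of the 38 among them, and a gene was called at an adjusted p under 0.05. Of all tested genes 13.0% were called lower and 17.2% higher in trSrebf1 libraries. All 7 G2/M genes that could be tested were called lower. Of the 8 S-phase genes tested, 2 were called lower (Mcm6 and Tyms) and 1 higher (Rrm1), shares of 25.0% and 12.5% on too few genes to be told from those of all genes. Of the chromatin and tubulin genes 2 were tested and 1, Tubb5, was called lower. The median log2 fold change was -1.40 over the 7 G2/M genes and -0.59 over the 8 S-phase genes, beside -0.01 over all genes tested.

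The filter bears on these counts. Of the 17 tested, 9 had enough counts in all 3 libraries of the control group only (Mcm2, Mcm6, Tyms, Mki67, Ccnb2, Bub1b, Kif11, Tpx2 and Stmn1), and such a gene tends to be lower in trSrebf1 libraries by the way it was let in. A total of 7 passed in both groups, of which Top2a, Nusap1 and Tubb5 were called lower, Rrm1 was called higher and Cdc6, Pcna and Tk1 were not called. Mcm7 passed in trSrebf1 libraries only. A fit with no filter tested all 38 rows, where 7.39% of 19865 genes were called lower and 9.95% higher: 8 G2/M genes, Tyms and Tubb5 were called lower and Rrm1 higher, and Mcm6 was not called. Without control library 1 the calls with the filter numbered 4 lower for G2/M genes, 1 lower and 0 higher for S-phase genes, and 6 lower over all members.

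**Figure D1:**
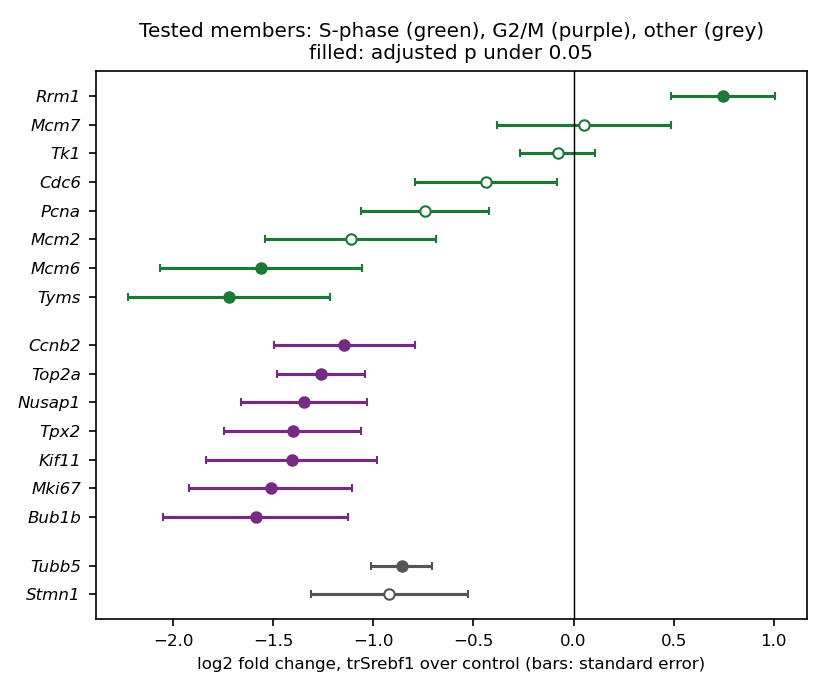
Log2 fold change of trSrebf1 over control (x axis) for the 17 tested genes, with bars of 1 standard error, S-phase genes in green, G2/M genes in purple and the 2 others in grey. Filled points have an adjusted p under 0.05. The 7 G2/M genes sit between -1.59 and -1.14, and the S-phase genes spread between -1.72 (Tyms) and 0.75 (Rrm1).

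Promoters of S-phase and G2/M genes are known for different elements, and 5 are shown because their genes mark the contrast: Top2a, Ccnb2 and Mki67 as G2/M genes that were called lower, and Mcm6 and Rrm1 as S-phase genes called in opposite directions. They were chosen with these values known. The windows are RefSeq promoters of the build GRCm38.p6, 250 bases before to 50 after each start, read 5′ to 3′ on the gene's strand. Capitals mark matches on either strand to a CHR string (TTTGAA or TTCGAA), the element that recruits repressor and activator complexes to many G2/M genes, to CCAAT, which the factor NF-Y binds, or to an E2F string (the letters TTCCCGC, the letters TTGGCGC, the letters TTCGCGC or the letters TTGCCGC), of which neighbouring matches can overlap.
Top2a (chr11:99024140-99024439, minus strand): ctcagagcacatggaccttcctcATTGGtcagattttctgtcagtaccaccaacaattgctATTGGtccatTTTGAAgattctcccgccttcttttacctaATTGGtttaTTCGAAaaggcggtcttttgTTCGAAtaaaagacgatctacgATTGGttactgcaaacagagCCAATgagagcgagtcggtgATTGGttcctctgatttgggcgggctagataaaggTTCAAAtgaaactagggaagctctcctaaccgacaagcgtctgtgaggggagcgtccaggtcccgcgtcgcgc
Ccnb2 (chr9:70421505-70421804, minus strand): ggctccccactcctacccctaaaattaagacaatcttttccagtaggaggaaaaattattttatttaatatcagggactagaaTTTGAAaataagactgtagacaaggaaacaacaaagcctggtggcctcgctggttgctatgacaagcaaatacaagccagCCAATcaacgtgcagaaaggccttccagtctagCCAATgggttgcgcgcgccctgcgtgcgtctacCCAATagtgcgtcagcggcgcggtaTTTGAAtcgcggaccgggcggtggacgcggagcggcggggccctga
Mki67 (chr7:135716330-135716629, minus strand): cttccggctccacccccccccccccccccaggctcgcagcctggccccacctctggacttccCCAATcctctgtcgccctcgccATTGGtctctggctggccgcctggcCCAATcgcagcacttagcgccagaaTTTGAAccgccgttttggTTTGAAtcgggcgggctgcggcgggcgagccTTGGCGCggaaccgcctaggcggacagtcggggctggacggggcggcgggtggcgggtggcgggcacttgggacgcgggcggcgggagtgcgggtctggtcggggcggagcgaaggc
Mcm6 (chr1:128359656-128359955, minus strand): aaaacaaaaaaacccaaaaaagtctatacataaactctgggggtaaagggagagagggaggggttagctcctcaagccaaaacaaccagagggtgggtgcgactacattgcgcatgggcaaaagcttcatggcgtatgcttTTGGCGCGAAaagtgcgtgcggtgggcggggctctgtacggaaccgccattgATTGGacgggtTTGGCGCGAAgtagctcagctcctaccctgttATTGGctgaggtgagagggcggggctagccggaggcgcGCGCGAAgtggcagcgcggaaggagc
Rrm1 (chr7:102441445-102441744, plus strand): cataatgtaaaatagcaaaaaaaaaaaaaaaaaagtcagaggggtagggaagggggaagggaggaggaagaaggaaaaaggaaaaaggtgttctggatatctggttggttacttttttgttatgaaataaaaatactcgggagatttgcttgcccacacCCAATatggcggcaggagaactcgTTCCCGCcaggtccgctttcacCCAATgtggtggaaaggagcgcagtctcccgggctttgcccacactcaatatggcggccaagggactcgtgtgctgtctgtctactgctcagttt

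Top2a holds 4 CHR and 6 CCAAT matches and 0 E2F matches, Ccnb2 holds 2 CHR and 3 CCAAT matches, and Mki67 holds 2 CHR, 3 CCAAT and 1 E2F matches. Mcm6 holds 0 CHR, 2 CCAAT and 5 E2F matches, and Rrm1 holds 0, 2 and 1. Over the 17 G2/M genes with a window, 13 (76.5%) held a CHR string, against 2 of 11 S-phase genes (18.2%) and 19.2% of all 32851 windows. CCAAT was found for 15 of the 17 G2/M genes (88.2%) and for 8 of the 11 S-phase genes (72.7%), against 37.4% of all windows. Mcm7 has 2 windows and was counted once, by the window with more matches, while the share of all windows counts each window. E2F strings were in 3 of the 17 (17.6%) and in 7 of the 11 (63.6%), against 9.57% of all windows. The strings do not follow the calls one to one: the windows of Nusap1 and Tyms, both called lower, hold 0 matches to any of the 3. Ccne2, Gmnn, Mcm4, Ccna2, Aurkb, Kif20a, Tpx2 and Stmn1 had no window.

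**Figure D2:**
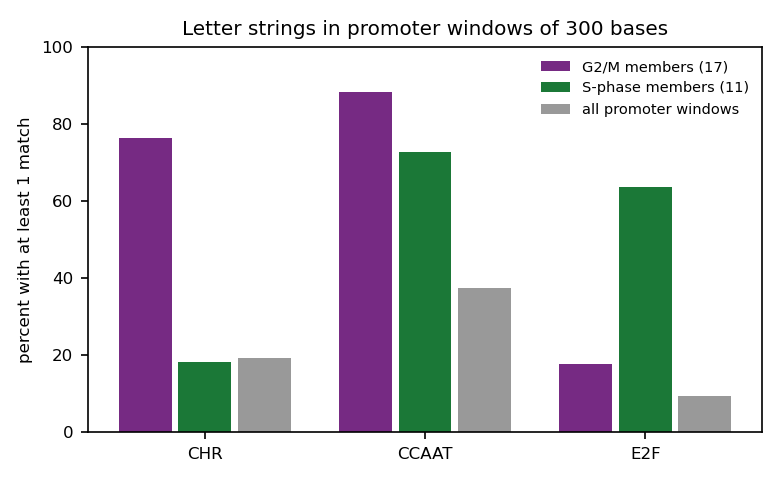
Percentage (y axis) with at least 1 match to each letter string (x axis) in promoter windows of 300 bases. Shares are of the 17 G2/M genes (purple), the 11 S-phase genes (green) and all 32851 windows (grey). CHR strings were found for 76.5% of G2/M genes and 18.2% of S-phase genes, and E2F strings for 17.6% and 63.6%.

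Among the helicase genes, Mcm6 was called lower in the main fit and Mcm7 was not called. Mcm6, a helicase subunit, had 0.645, 1.02 and 1.37 CPM in trSrebf1 libraries, against 2.88, 3.61 and 2.59 CPM in control libraries (3, 4 and 6 counts, against 11, 14 and 11). The groups do not overlap, yet 1 count is worth 0.215 to 0.262 CPM, so the values rest on few tags. Its log2 fold change was -1.56 (SE 0.51, adjusted p = 0.0259, edgeR quasi-likelihood test with Benjamini-Hochberg adjustment, as for every adjusted p here unless another tool is named). The call of Mcm6 was lost without control library 1 (0.0654), 2 (0.111) or 3 (0.0534), without trSrebf1 library 1 (0.118) or 2 (0.0647), with no filter (0.0546) and with DESeq2 (0.0815), in a range of 0.0186 to 0.118. The call was also lost with the replicate number as a block (adjusted p = 0.0560).

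Mcm2, another subunit, had 1.94, 3.05 and 2.06 CPM in trSrebf1 libraries, against 7.87, 3.87 and 3.54 CPM in control libraries. All trSrebf1 values lie below all control values, with control library 1 far above the rest, and the log2 fold change of -1.11 (SE 0.43) missed the threshold (adjusted p = 0.0587). It passed with upper-quartile factors (0.0416), with total counts (0.0431) and without control library 3 (0.0409), in a range of 0.0409 to 0.350. Mcm7 averaged 2.78 ± 0.194 CPM in trSrebf1 libraries and 2.67 ± 1.03 CPM in control libraries (SD, n = 3 each). Its log2 fold change was 0.05 (SE 0.43, adjusted p = 0.946), and it turned to -0.030 with upper-quartile factors, -0.023 with total counts and -0.20 without control library 1. The 3' end of Mcm7 lies opposite Cops6 and has a near-identical copy, Gm5487, so its tags are uncertain.

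Cdc6, which loads the helicase at origins, had 8.82, 4.57 and 4.11 CPM in trSrebf1 libraries, against 11.01, 5.16 and 7.78 CPM in control libraries. The groups overlap, library 1 is the highest of each group, and the log2 fold change of -0.44 (SE 0.35) was not called (adjusted p = 0.398). Mcm4 had 9, 11 and 9 counts in trSrebf1 libraries, against 9, 6 and 15 counts in control libraries, and was not tested. Mcm3 (8, 1 and 5 counts, against 2, 5 and 4) and Mcm5 (1, 9 and 1, against 3, 9 and 4) were too sparse to show a difference. Gmnn, the inhibitor of helicase loading, had 2 counts in trSrebf1 libraries and 4 in control libraries over the 3 of each group. Over the 8 genes of the helicase and its loading, the sum was 16.3 ± 2.21 CPM in trSrebf1 libraries and 23.9 ± 2.95 CPM in control libraries (SD, n = 3 each).

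Pcna, the sliding clamp that holds polymerases on DNA, had 6.24, 4.82 and 5.02 CPM in trSrebf1 libraries, against 13.1, 6.45 and 7.55 CPM in control libraries. The groups do not overlap, but the lowest control library lies close to the highest trSrebf1 library, and control library 1 is far above both others. The log2 fold change was -0.74 (SE 0.32, adjusted p = 0.0927), and no alternative run brought Pcna past the threshold (0.0549 to 0.453). Ccne2, the cyclin E2 that starts S phase with Cdk2, had 1 count over the 3 trSrebf1 libraries and 4 over the 3 control libraries.

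The nucleotide enzymes split. Tyms, thymidylate synthase, had 2.15, 0.254 and 2.06 CPM in trSrebf1 libraries, against 3.41, 6.19 and 5.66 CPM in control libraries (10, 1 and 9 counts, against 13, 24 and 24). All trSrebf1 libraries lie below all control libraries, and trSrebf1 library 2 is the lowest with a single count. Tyms fell by 1.72 on the log2 scale (SE 0.51, adjusted p = 0.0149), a call lost without control library 2 (0.0679, in a range of 0.00273 to 0.0679), and it has a near-identical pseudogene copy.

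Rrm1, the large subunit of ribonucleotide reductase, went the other way. It had 10.8, 11.7 and 13.5 CPM in trSrebf1 libraries, against 5.77, 8.26 and 7.31 CPM in control libraries, and the groups do not overlap. Rrm1 rose by 0.75 on the log2 scale (SE 0.26, adjusted p = 0.0363) and was the 1 member called higher. The call was lost without control library 1 (0.113) or 3 (0.0795), without trSrebf1 library 2 (0.0578) or 3 (0.125), with DESeq2 (0.0796), with total counts (0.0660) and with upper-quartile factors (0.0581), over all alternatives between 0.0342 and 0.125. With the replicate number as a block it was lost too (adjusted p = 0.0505). Rrm2, the partner subunit that is made in S phase, had 7, 3 and 6 counts in trSrebf1 libraries, against 3, 1 and 1 counts in control libraries, and was not tested. Its groups touch at 3 counts, and the 3' end of Rrm2 has near-identical copies.

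Tk1, the thymidine kinase that recycles thymidine in S phase, gave the largest part of the S-phase tags, 58.4% ± 1.91 of the S-phase sum in trSrebf1 libraries and 53.4% ± 5.36 in control libraries (SD, n = 3 each). It had 50.8, 47.7 and 55.0 CPM in trSrebf1 libraries, against 73.4, 41.3 and 47.7 CPM in control libraries. The control values reach further both up and down than the trSrebf1 values. The log2 fold change of Tk1 was -0.08 (SE 0.19, adjusted p = 0.798), and it was 0.20 without control library 1. Without Tk1 the S-phase sum was 38.9, 34.3 and 36.1 CPM in trSrebf1 libraries, against 50.6, 43.6 and 43.4 CPM in control libraries, a log2 ratio of -0.33 with groups that do not overlap. With Tk1 the log2 ratio was -0.19, and it was -0.00 without control library 1.

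**Figure D3:**
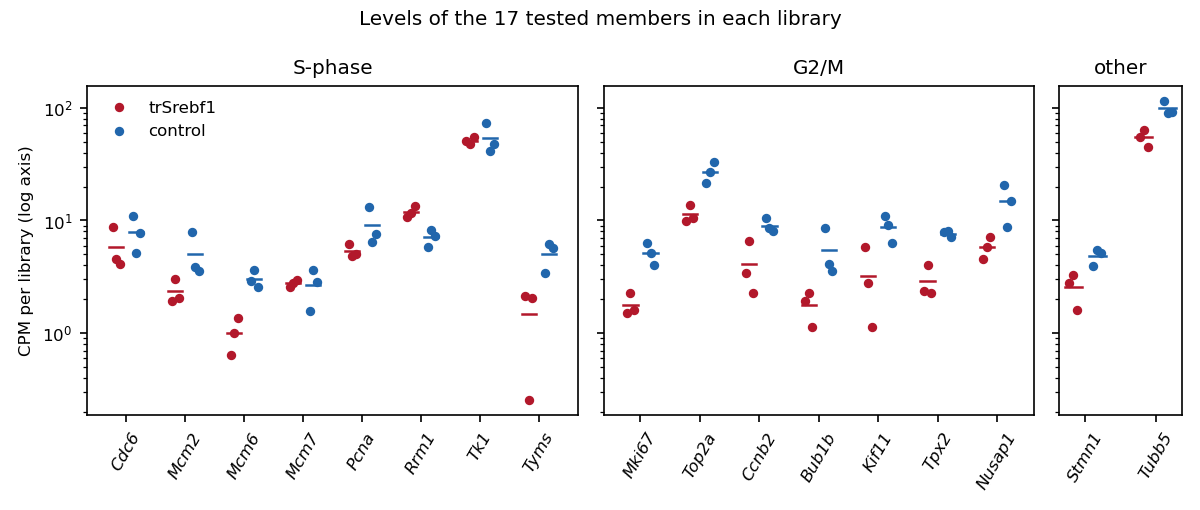
CPM in each library (y axis, log scale) for the 17 tested genes (x axis), with trSrebf1 libraries in red left of control libraries in blue and a line at each group's mean. The groups do not overlap for any of the 7 G2/M genes, while Cdc6, Mcm7 and Tk1 among the S-phase genes do.

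Of the cyclins and the kinase that start mitosis, Ccnb2 had enough counts for a test. Ccnb2, cyclin B2, had 3.44, 6.60 and 2.28 CPM in trSrebf1 libraries, against 10.5, 8.51 and 8.02 CPM in control libraries. All trSrebf1 libraries were below all control libraries, and trSrebf1 library 2 came nearest to them. Ccnb2 fell by 1.14 on the log2 scale (SE 0.35, adjusted p = 0.0194), with the call lost without control library 1 (0.0596) or without trSrebf1 library 1 (0.0804) or 3 (0.0943), in a range of 0.00266 to 0.0943.

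Cdk1, the kinase that drives entry into mitosis, had 2, 0 and 3 counts in trSrebf1 libraries, against 5, 8 and 3 counts in control libraries, and was not tested. Library 3 of each group had the same count, and their levels of 0.685 and 0.708 CPM differ only through depth. Ccna2, cyclin A2, had 6 counts over the trSrebf1 libraries and 13 over the control libraries. Ccnb1, cyclin B1, did not follow Ccnb2: it had 10, 3 and 0 counts in trSrebf1 libraries, against 1, 1 and 6 counts in control libraries, with 1 library of each group holding most of them. The 3' end of Ccnb1 has 5 near-identical copies, and that of Ccna2 lies opposite Exosc9. The 4 genes together summed to 5.92 ± 1.99 CPM in trSrebf1 libraries and 12.1 ± 1.73 CPM in control libraries (SD, n = 3 each).

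Among the mitotic kinases and checkpoint genes, Bub1b was tested and was lower. Bub1b, a checkpoint kinase homologue that restrains chromosome separation, had 1.94, 2.28 and 1.14 CPM in trSrebf1 libraries, against 8.65, 4.13 and 3.54 CPM in control libraries. The trSrebf1 values are close together and below every control value, and control library 1 is about double the other two. Bub1b fell by 1.59 on the log2 scale (SE 0.46, adjusted p = 0.0135). The call was lost without control library 1 (0.130) and without trSrebf1 library 3 (0.0587), in a range of 0.00437 to 0.130.

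Birc5, survivin, which works with Aurkb on chromosome attachment, had 2, 3 and 5 counts in trSrebf1 libraries, against 10, 7 and 9 counts in control libraries. Aurkb itself had 1, 0 and 1 counts, against 4, 1 and 3, and Bub1 had 3, 2 and 1 counts, against 9, 1 and 4. In CPM the groups of Birc5 and Aurkb do not overlap, while those of Bub1 and of Plk1, a kinase of many mitotic steps (4, 6 and 2 counts, against 8, 6 and 5), do. For Aurkb, trSrebf1 library 3 and control library 2 each held 1 count, and their levels of 0.228 and 0.258 CPM differ only through depth. Aurka, the kinase of the spindle poles, was the exception in its mean, with 7 counts over the trSrebf1 libraries and 2 over the control libraries. That ratio of 3.22 had a 95% interval of 0.613 to 31.8 from counting error alone, so no difference was detectable at this depth. The 6 genes summed to 4.73, 5.33 and 3.88 CPM in trSrebf1 libraries, against 16.8, 8.52 and 8.49 CPM in control libraries.

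The spindle and kinetochore genes held 3 that were tested, and each was lower. Tpx2, which activates Aurka and seeds spindle microtubules, had 2.37, 4.06 and 2.28 CPM in trSrebf1 libraries, against 7.87, 8.0 and 7.08 CPM in control libraries. The control values are tight and the nearest trSrebf1 value lies well under them. Tpx2 fell by 1.40 on the log2 scale (SE 0.34, adjusted p = 0.00424).

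Nusap1, which bundles spindle microtubules around chromosomes, had 4.52, 5.84 and 7.08 CPM in trSrebf1 libraries, against 20.7, 8.77 and 14.9 CPM in control libraries. The groups do not overlap, and the control values spread widely. Nusap1 fell by 1.35 on the log2 scale (SE 0.32, adjusted p = 0.00320). Kif11, the kinesin that pushes spindle poles apart, had 5.81, 2.79 and 1.14 CPM in trSrebf1 libraries, against 11.01, 9.03 and 6.37 CPM in control libraries. The groups come close, with trSrebf1 library 1 just under control library 3. Kif11 fell by 1.41 on the log2 scale (SE 0.43, adjusted p = 0.0191), and its call was lost without control library 1 (0.0648) or 2 (0.0552) and without trSrebf1 library 2 (0.0647) or 3 (0.0691), in a range of 0.000887 to 0.0691.

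Cenpe, the kinetochore kinesin that carries chromosomes to the spindle equator, missed the filter but was called in the fit without one. It had 7, 1 and 5 counts in trSrebf1 libraries, against 19, 16 and 8 counts in control libraries, and the groups do not overlap. In that fit the log2 fold change of Cenpe was -1.84 (SE 0.57, adjusted p = 0.00991). Cenpf, a kinetochore protein, had 11, 6 and 3 counts in trSrebf1 libraries, against 16, 3 and 20 counts in control libraries, where control library 2 is as low as the lowest trSrebf1 library. Kif23, a kinesin of cell division's last step, had 0, 0 and 1 counts, against 2, 2 and 6, and Kif20a, another, had 0, 3 and 2, against 4, 1 and 3. Together the 7 genes summed to 16.6, 15.2 and 13.02 CPM in trSrebf1 libraries, against 50.3, 31.5 and 37.0 CPM in control libraries, the lowest fold (0.377) of the role groups.

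Of the genes that end mitosis, Cdc20, which activates the anaphase-promoting complex, had 3, 2 and 1 counts in trSrebf1 libraries, against 2, 7 and 2 counts in control libraries. Ube2c, the enzyme that hands ubiquitin to that complex, had 2, 0 and 3 counts, against 4, 1 and 2. For both the groups overlap, and no difference was detectable at this depth.

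Mki67 and Top2a, both used as marks of dividing cells, were lower. Mki67, which coats mitotic chromosomes and keeps them apart, had 1.51, 2.28 and 1.60 CPM in trSrebf1 libraries, against 6.29, 5.16 and 4.01 CPM in control libraries. Top2a, the topoisomerase that untangles replicated DNA, had 9.89, 13.7 and 10.5 CPM in trSrebf1 libraries, against 21.5, 26.8 and 33.0 CPM in control libraries. For each gene the highest trSrebf1 library lies well under the lowest control library. The 3' end of Mki67 has a near-identical match, Gm44521. Mki67 fell by 1.51 on the log2 scale (SE 0.41, adjusted p = 0.00865) and Top2a by 1.26 (SE 0.22, adjusted p = 2.41e-04). Mki67, Top2a, Tpx2, Nusap1 and Tubb5 kept their call in every alternative that tested them, 14 for Mki67 and 15 for each of the others.

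Tubb5, a widely used beta tubulin, had 55.5, 63.7 and 44.5 CPM in trSrebf1 libraries, against 115, 90.3 and 91.5 CPM in control libraries. The groups are clearly apart, and Tubb5 fell by 0.86 on the log2 scale (SE 0.15, adjusted p = 3.11e-04). Stmn1, which takes microtubules apart, had 2.80, 3.30 and 1.60 CPM in trSrebf1 libraries, against 3.93, 5.42 and 5.19 CPM in control libraries. Its groups do not overlap, yet the log2 fold change of -0.92 (SE 0.39) was not called (adjusted p = 0.0897), and a near-identical copy, Gm11223, makes its tags uncertain. Hmgb2, a DNA-bending chromatin protein, had 13, 1 and 9 counts in trSrebf1 libraries, against 7, 7 and 13 counts in control libraries, which overlap.

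Counting rows rather than tests, every trSrebf1 library was below every control library in CPM for 12 of the 21 G2/M genes, 5 of the 14 S-phase genes and 2 of the 3 others, where 13.6% of all 19865 rows were. The opposite was seen for 0 G2/M genes and 1 S-phase gene (Rrm1), where 14.5% of all rows were. Cdk1, Aurkb and Ccne2 are among the genes counted as below. For each of them the nearest libraries of both groups held the same count, and their CPM differ only through depth. For other sparse genes, such as Kif23, the separation rests on few tags. The group mean was lower in trSrebf1 libraries for 19 of the 21 G2/M genes, the exceptions being Aurka and Ccnb1, and for 10 of the 14 S-phase genes. The 14 G2/M genes that were not tested summed to 10.3, 7.36 and 7.77 CPM in trSrebf1 libraries, against 23.1, 16.8 and 16.7 CPM in control libraries, a fold of 0.450. That is close to the fold of 0.398 of the 7 that were tested. The 3' ends of Mcm4, Mcm5, Kif11, Ube2c, Cenpf and Hmgb2 have near-identical matches elsewhere in the genome. Those of Ccne2, Kif20a and, in part, Cdc20 lie opposite other genes, so the tags of all these genes are uncertain. The 6 untested S-phase genes summed to 5.64 ± 0.552 CPM in trSrebf1 libraries and 5.86 ± 0.773 CPM in control libraries (SD, n = 3 each).

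**Figure D4:**
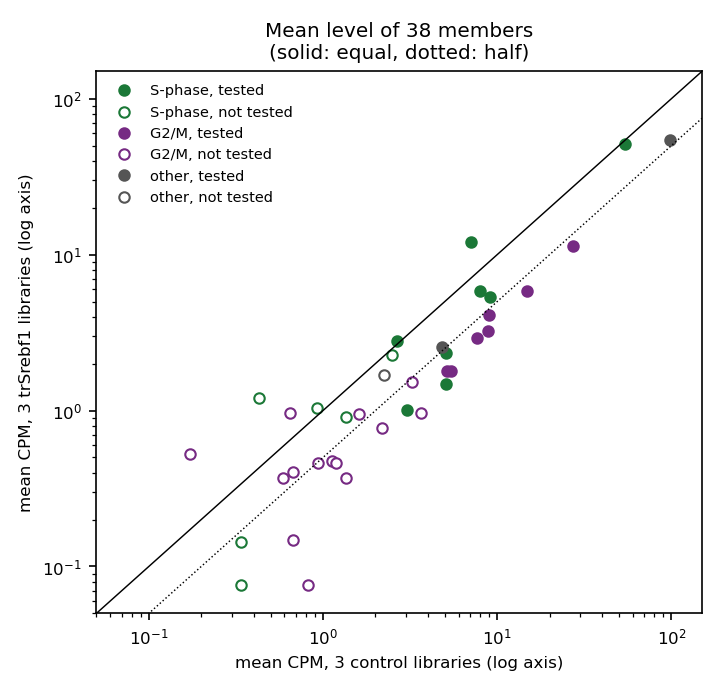
Mean CPM over the 3 trSrebf1 libraries (y axis, log scale) against the mean over the 3 control libraries (x axis, log scale) for all 38 genes, filled where tested and open where not. The solid line marks equal levels. Of the 21 G2/M genes (purple) 19 lie below it, and of the 14 S-phase genes (green) 10 do.

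The G2/M sum divided by the S-phase sum of the same library does not depend on library scaling. It was 0.444, 0.548 and 0.371 in trSrebf1 libraries, against 0.884, 1.03 and 1.03 in control libraries. With Tk1 left out of the S-phase sum, the ratio was 1.02, 1.31 and 0.937 in trSrebf1 libraries, against 2.17, 2.00 and 2.16 in control libraries. Either way the groups are apart, also with control library 1 set aside. Leaving out 1 library at a time moved the log2 ratio of the G2/M sum between -1.39 and -1.19.

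**Figure D5:**
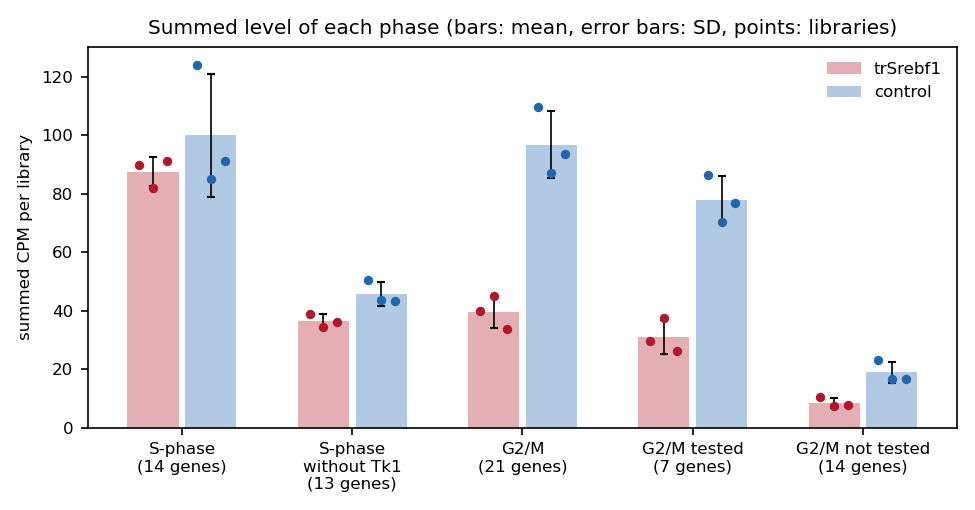
Summed CPM per library (y axis) of the S-phase genes with and without Tk1, of the G2/M genes, and of the G2/M genes that were tested and not tested, with trSrebf1 in red left of control in blue. Bars are means, error bars 1 SD and points the 3 libraries of a group. The G2/M sums of the trSrebf1 libraries all lie below those of the control libraries, whether tested or not.

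Beyond the 39, 11 lists of other cell cycle genes held 157 tested genes, of which 28 were called lower (17.8%) and 15 higher (9.55%), beside 13.0% and 17.2% of all genes. Their median log2 fold change was -0.23, beside -0.01. Without control library 1 the number called lower was 16. Genes were called in both directions in 7 of the 11 lists. The filter bears on these calls too. Among the genes named below, Topbp1, Fbxo5, Plk4, Ncapg and Ncaph had enough counts in all libraries of the control group only. Lig1, Ccnf and Pkmyt1 had enough in all libraries of the trSrebf1 group only. Such a gene tends to be higher in the group that let it in.

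Of 10 origin licensing and firing genes 2 were lower, Gins2 of the active helicase (-1.46, SE 0.19, adjusted p = 1.32e-05) and Topbp1, which starts forks (-1.03, SE 0.37, adjusted p = 0.0447). The groups of Topbp1 overlap, with 4.73 CPM in trSrebf1 library 1 and 4.72 CPM in control library 3. Its call was lost with DESeq2 (adjusted p = 0.0818) and with limma-voom (adjusted p = 0.0504). Gins2 had 12.3, 16.2 and 16.2 CPM in trSrebf1 libraries, against 49.3, 38.2 and 35.4 CPM in control libraries. Its 3' end lies opposite Gse1. Of 20 polymerase and fork genes 2 were lower and 2 higher: the primase subunit Prim1 at -1.42 (SE 0.27, adjusted p = 4.88e-04) is among the lower, and Rpa1, which binds single-stranded DNA, at 1.23 (SE 0.13, adjusted p = 8.55e-07) and the DNA ligase Lig1 at 1.69 (SE 0.45, adjusted p = 0.00776) are the higher. Nucleotide supply had 5 of 13 lower, among them Ctps at -0.96 and Dut at -1.17 on the log2 scale. Ctps makes cytidine nucleotides and Dut keeps uracil out of DNA.

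Among regulators of the cycle, changes went both ways. Of 12 genes of the E2F, MYB and RB families 1 was called, E2f1, an activator of S-phase genes. E2f1 had 157, 153 and 115 CPM in trSrebf1 libraries, against 54.8, 46.2 and 58.3 CPM in control libraries (log2 fold change 1.41, SE 0.15, adjusted p = 8.25e-07). The groups are far apart. Of 15 kinases, cyclins and phosphatases 2 were lower and 2 higher. Ccnf, cyclin F, an F-box protein, had 86 counts over the trSrebf1 libraries and 2 over the control libraries, a ratio of 39.6 with a 95% interval of 10.6 to 332 from counting error alone. Pkmyt1, which restrains Cdk1, rose by 2.71 (SE 0.35, adjusted p = 1.29e-05) and lies opposite Paqr4 at its 3' end, and cyclin D3 (Ccnd3) fell by 1.04 (SE 0.17, adjusted p = 1.30e-04).

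Kinetochore genes gave 2 lower (Spc24 at -0.99 and Zwilch at -0.98) and 1 higher (Zwint at 1.33) of 10, and spindle checkpoint and anaphase-promoting complex genes 3 lower and 1 higher of 18, with Anapc5 at -1.0, Fbxo5, an inhibitor of that complex, at -2.14 and Cdc27 at 0.71. Spindle assembly, motor and cytokinesis genes gave 5 lower and 1 higher of 19. Incenp, the scaffold of Aurkb and Birc5, had 6.24, 12.9 and 4.57 CPM in trSrebf1 libraries, against 29.9, 22.2 and 21.9 CPM in control libraries (log2 fold change -1.65, SE 0.30, adjusted p = 5.51e-04). Plk4, which duplicates centrioles, was at -1.45, and Cit, a kinase of cytokinesis, at 0.87. Of 18 condensin and cohesin genes 3 were lower and 2 higher. Ncapg (-2.17, SE 0.45, adjusted p = 0.00124) and Ncaph (-1.60, SE 0.39, adjusted p = 0.00387) of condensin I were lower, and Ncapd3 of condensin II was higher (1.29, SE 0.23, adjusted p = 3.37e-04).

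Of 11 tubulins other than Tubb5, 4 were higher, with Tubb3 at 0.97, Tuba4a at 1.03 and Tuba1a at 0.58. The 3' ends of Tubb3, Tuba1a, Zwint, Anapc5, Plk4, Spc24 and Ccnd3 have near-identical matches elsewhere. Those of Tuba4a and Ncapg lie opposite Stk16 and Lcorl, and that of Zwilch lies in part opposite Lctl. Of 11 histone variant and HMG genes 4 were lower and 1 higher, with Hmgn3 at -0.71, H3f3b at -0.60 and H2afy at 0.72. Calls in these lists were lost when 1 library was left out for Topbp1 (control 1, 0.133, control 2, 0.123, trSrebf1 2, 0.137, trSrebf1 3, 0.129, range 0.0237 to 0.137) and Lig1 (trSrebf1 1, 0.0706, range 5.87e-04 to 0.0706). The same holds for Zwilch (control 1, 0.0584, control 3, 0.0530, trSrebf1 1, 0.0822, range 0.00814 to 0.0822) and Fbxo5 (control 3, 0.0588, trSrebf1 1, 0.0714, trSrebf1 3, 0.0566, range 0.00655 to 0.0714). It also holds for Cdc27 (control 2, 0.0612, trSrebf1 1, 0.118, range 8.72e-04 to 0.118) and Plk4 (control 1, 0.171, trSrebf1 2, 0.0639, range 0.00283 to 0.171). The values are adjusted p in the edgeR fit, where the name is the library left out. Plk4 also lost its call with limma-voom (adjusted p = 0.0630).

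Of 7 inhibitors of cyclin-dependent kinases, 4 were called higher (57.1%) and 1 lower (14.3%), beside 17.2% and 13.0% of all tested genes. Cdkn1a, p21, had 6813, 6603 and 7460 CPM in trSrebf1 libraries, against 2049, 2699 and 2711 CPM in control libraries (log2 fold change 1.48, SE 0.11, adjusted p = 2.19e-08). Every trSrebf1 library was more than double the highest control library in Cdkn1a. Cdkn2b was also higher (0.62, SE 0.15, adjusted p = 0.00509), and Cdkn1b, p27, was lower (-0.72, SE 0.11, adjusted p = 9.99e-05). Cdkn2a (0.94, adjusted p = 0.0343) and Cdkn2d (1.01, adjusted p = 0.0415) were called higher but lost their calls in 6 and 10 of the alternatives. Among those are leaving out control library 1 (0.125) or 2 (0.109) or trSrebf1 library 2 (0.117) or 3 (0.0793) for Cdkn2a, in a range of 0.00662 to 0.125. For Cdkn2d they are control library 2 (0.0945) or 3 (0.135) and trSrebf1 library 1 (0.0614) or 3 (0.213), in a range of 0.0298 to 0.213. Of 16 quiescence and growth arrest genes 6 were lower (37.5%) and 4 higher (25.0%), beside the same shares of all tested genes.

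Of other measures, some lay apart between the groups and others overlapped. Macrophages can divide in injured lungs, and 12 of 15 macrophage markers had a row, with a sum of 4.73, 10.2 and 19.9 CPM in trSrebf1 libraries, against 55.3, 21.2 and 12.3 CPM in control libraries. The largest part was C1qa, at 2.37, 5.84 and 16.4 CPM, against 43.0, 12.1 and 7.55 CPM, with the most in control library 1. Without control library 1 the log2 ratio of the G2/M sum was -1.19. Tyrobp was called lower (-2.39, adjusted p = 0.00374), and C1qc was at 0 in the trSrebf1 libraries, against 9, 6 and 1 counts in control libraries. Cd68, Lyz2, Itgam, Fcer1g and Mrc1 had at most 5 counts in any library. Of lymphocyte markers 3 of 12 had a row, with 0.860 to 1.60 CPM in trSrebf1 libraries and 0 to 0.774 CPM in control libraries. Of pericyte and smooth muscle markers, 4 of 6 tested were lower, beside 13.0% of all tested genes. Yet the sum of the 8 with a row was higher, at 147.1, 170.3 and 131.6 CPM in trSrebf1 libraries, against 88.9, 74.3 and 73.8 CPM in control libraries. Cspg4, the 1 called higher, gave most of it in trSrebf1 libraries (log2 fold change 2.87). The endothelium markers summed to 54.1 to 59.2 CPM in trSrebf1 libraries and 45.9 to 59.3 CPM in control libraries, nearly all of it Eng. The epithelium markers summed to 15.5 to 38.3 CPM in trSrebf1 libraries and 24.1 to 29.3 CPM in control libraries, with Foxj1 called higher (3.34) and Krt19 lower (-1.16). Genes that respond to tissue dissociation were called lower in 13 of 16 (81.2%), beside 13.0% of all tested genes. Their median log2 fold change was -0.64, beside -0.01 over all tested genes. The lysosomal protease gene Ctsd took 6.71% ± 0.155 of all counts in trSrebf1 libraries and 0.920% ± 0.0521 in control libraries (SD, n = 3 each). The part of these other markers, of the fibroblast markers and of dissociation in the G2/M values was not tested. With Ctsd left out of the library totals the log2 ratio of the G2/M sum was -1.31.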

How the data were processed

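The authors deposited a table of raw whole-number counts by gene symbol for each library. Per the submitters' processing notes, Bowtie2 2.2.5 and the build mm10 were used, in a role the notes do not state. How tags were assigned to genes, and whether strand was used, is not given in the sources used here, so tags of overlapping or near-identical genes are uncertain. Such genes were looked up in GENCODE M21 (GRCm38, the assembly of mm10) and, over the last 500 bases of each transcript, with BLAST 2.17.0 (matches of 100 bases or more at 95% identity or more).

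The test was edgeR 4.0.16 under R 4.3.3 (TMM factors, filterByExpr with a minimum count of 10 and a minimum total of 15, robust glmQLFit and glmQLFTest, group as the only term, two-sided) on the counts, with Benjamini-Hochberg adjustment over 10194 genes and called under 0.05. Fold changes carry a prior count of 0.125. The standard errors (SE) are not estimated by the fit itself. Each is the absolute log2 fold change divided by the square root of the test's F statistic. CPM are counts scaled to 1 common total by the TMM-scaled library size. Alternatives were other scaling factors, DESeq2 1.42.0, limma-voom (limma 3.58.1), no filter, a filter of 5 CPM in 3 libraries, a replicate block, and leaving out Ctsd or each library. The edgeR and DESeq2 scripts were tested on simulated data.

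The genes and lists were chosen with earlier results of these data known. Called genes and the highest of each role group have all library values. Up to 3 called genes of smallest p were named from each other list, and every called inhibitor, by rule, except 1 gene that is not reported here. Leaving out Tk1 and the choice of promoters came after values were seen. The labels do not say whether libraries came from separate mice or cultures, so p-values reflect only the variation among the 6 libraries, and that may be technical. Within groups, the chi-square per degree of freedom between 2 libraries was 4.52 to 8.13, so none was treated as a copy. Intervals cover counting error only, since tags carried no molecular identifiers.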

Additional observations from a re-analysis of the deposited data

How the results depend on the processing

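Low counts limit these results: 21 of the 38 genes could not be tested, and calls of Mcm6, Rrm1, Tyms, Ccnb2, Bub1b and Kif11 were each lost in at least 1 alternative, while Mki67, Top2a, Tpx2, Nusap1 and Tubb5 were not. The number of G2/M genes called lower was 7 and ranged from 4 (without control library 1) to 8 with 1 library left out, and was between 5 and 8 under the other settings. S-phase genes called lower numbered 2, against 3 with upper-quartile factors or total counts, where Mcm2 was gained, 1 with DESeq2, 1 with no filter and 0 with the filter of 5 CPM, and 0 to 2 with 1 library left out. S-phase genes called higher numbered 1, against 0 with upper-quartile factors, 0 with total counts and 0 with DESeq2, and 0 to 1 with 1 library left out. Of the other cell cycle lists, 28 genes were called lower, 36 with upper-quartile factors, 33 with total counts, 22 with DESeq2, and 16 to 24 with 1 library left out. The log2 fold change of Mcm7 reversed with total counts (-0.023) and upper-quartile factors (-0.030) and ran from -0.20 (without control library 1) to 0.32 with 1 library left out, and that of Tk1 from -0.24 to 0.20 (without control library 1). With windows of 150 bases before to 50 after the start, 1 S-phase promoter held a CHR string in place of 2. The cause of these changes was not tested.

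No shared effect of the replicate number was visible: deviations of same-numbered libraries correlated at 0.005, -0.11 and -0.05. Differently numbered libraries correlated at -0.067 to 0.11. Such values cannot show whether the libraries were handled as pairs. With the replicate number as a block, 2820 genes were called, against 3083 without it, with 7 G2/M genes and 1 S-phase gene lower and 0 S-phase genes higher, and 24 genes of the other lists lower.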
